A study of Mus musculus with 6 samples.

Results

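The 10 genes described here encode proteins that mark blood platelets and the megakaryocytes that shed them, and they were taken by name from a count table of 39017 gene rows from mouse brain. Gp1ba, Gp1bb, Gp9 and Gp5 encode the subunits of the glycoprotein Ib-IX-V receptor, Itga2b and Itgb3 encode the chains of integrin αIIbβ3, and Gp6, Treml1, Pf4 and Ppbp encode a collagen receptor, an alpha-granule membrane protein and a pair of granule chemokines. The set was chosen on these libraries, because Gp9 and Itgb3 were higher and Gp1bb was lower in RNA recovered with anti-HA beads. The difference between beads and tissue is therefore a description for these genes, and no p-value is given for them. Which of them passed the threshold of the fit over all genes is counted below, beside the share of all genes that did. The count is repeated for other settings at the end, and it supports nothing. Of the 10 genes, 6 passed the filter on low counts, 2 had a few counts in at least 1 library without passing it, and 2 had no count in any library.

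The RNA came from the hippocampus of female mice of strain C57BL/6 and genotype Tmem119-Cre:RiboTag, a genotype that all 6 libraries share. RiboTag is an allele of Rpl22, a gene for a ribosomal protein, whose product carries an HA epitope once Cre has acted, and here Cre is driven from Tmem119, a gene used to mark microglia. The 3 input libraries hold RNA taken without antibody and the 3 IP libraries hold RNA recovered with anti-HA magnetic beads, and libraries with the same title code form a pair. The labels used here give no age, no further allele or treatment, and no statement that a title code is a separate animal, and beads on tissue without tagged ribosomes were not analysed here.

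Library totals were 18448897 to 20422140 counts in input and 10757351 to 18558497 counts in IP. CPM denotes a count divided by the library total in units of 1000000, scaled by TMM factors, which correct for differences in composition between libraries. A count of 0 allows up to 3 counts in a library, which was 0.140 to 0.280 CPM, and this limit covers counting error only. All 12 microglial marker genes were higher in IP and all 12 neuronal marker genes were lower, and the summed neuronal markers stood at 9505 to 10498 CPM in input against 1468 to 1549 CPM on the beads. The labels name microglia as the cell type of both groups, while the input holds these neuronal RNAs. Over 16196 genes tested with edgeR, 47.7% differed between IP and input, 23.8% being higher and 23.9% lower, and for 61.9% the levels of the 2 groups did not overlap. The median log2 fold over all tested genes was -0.10.

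In platelets, GPIbα is the subunit that binds von Willebrand factor. It is linked to GPIbβ and held with GPIX, and in platelets and transfected cells the complex needs these subunits together to reach the surface efficiently, while GPV is more loosely attached. Integrin αIIbβ3 binds fibrinogen and joins platelets to each other. The αIIb chain is largely restricted to the megakaryocyte lineage, whereas β3 also pairs with αv, encoded by Itgav, in many other cells. In the megakaryocyte lineage, genes of this kind are known targets of GATA and ETS family factors.

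The promoters of Gp9, Gp1ba and Gp5 are shown because the 3 genes encode subunits of 1 receptor and had different levels in the same libraries. RefSeq promoter sequences on GRCm38.p6 were found for 9 of the 10 genes, all but Itgb3. Each sequence below is the 250 bases before the annotated start, 5′ to 3′ on the strand of the gene. Capitals mark GATAA or its reverse complement TTATC, called a GATA core here, and GGAAG or its reverse complement CTTCC, called an ETS core. Other forms, such as GATAG and its reverse complement CTATC, were not searched for and are not marked.
Gp9, chr6:87777820-87778069, plus strand: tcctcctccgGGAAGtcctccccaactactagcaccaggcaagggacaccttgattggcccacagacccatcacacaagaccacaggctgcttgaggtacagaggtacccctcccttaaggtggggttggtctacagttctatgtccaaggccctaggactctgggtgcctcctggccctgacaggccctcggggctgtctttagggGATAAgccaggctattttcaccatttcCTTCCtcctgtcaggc
Gp1ba, chr11:70638872-70639121, plus strand: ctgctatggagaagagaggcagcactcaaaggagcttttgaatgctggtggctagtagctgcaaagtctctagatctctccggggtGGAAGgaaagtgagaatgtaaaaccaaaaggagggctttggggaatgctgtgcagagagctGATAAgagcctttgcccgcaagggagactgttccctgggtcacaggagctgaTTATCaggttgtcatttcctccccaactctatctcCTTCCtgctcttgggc
Gp5, chr16:30310782-30311031, minus strand: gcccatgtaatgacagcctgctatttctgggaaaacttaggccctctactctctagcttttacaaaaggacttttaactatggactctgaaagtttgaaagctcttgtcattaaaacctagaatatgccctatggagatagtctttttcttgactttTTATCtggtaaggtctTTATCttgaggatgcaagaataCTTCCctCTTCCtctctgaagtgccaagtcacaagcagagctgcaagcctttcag
Gp9 held 1 GATA core, at -43 from the start, and Gp1ba held 2, at -103 and -51. Gp5 also held 2 GATA cores, at -93 and -77, and each of the 3 windows held 2 ETS cores. A GATA core was present in 22.6% of 32851 promoter windows of the same length and an ETS core in 64.1%, so that these matches are a description of the sequence and not of a bound site. The corresponding window of Gp1bb lies in an annotated exon of another gene and is not shown. Gp6 had 1 GATA core and Treml1, Pf4 and Ppbp had none in these windows. Itga2b also had none, but its window, 102469884 to 102470133, overlaps an annotated exon of Itga2b itself. The gene span used below ends at 102470122, so most of that window lies within the gene.

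Gp1bb, which encodes the GPIbβ subunit, was the most abundant of the set in tissue RNA and was lower in every IP library. The gene (ENSMUSG00000050761) spans positions 18620317 to 18622403 of chromosome 16 on the minus strand of GRCm38. It had 229, 245 and 252 CPM in input libraries 1, 2 and 3, from 4712 to 4914 counts. In IP libraries 1, 2 and 3 it had 60.9, 51.6 and 41.7 CPM, from 446 to 1129 counts. The groups did not overlap, the lowest input library being well above the highest IP library. The mean over input libraries was 242 ± 12.1 CPM and that over IP libraries 51.4 ± 9.64 CPM (SD, n = 3 each), a fitted log2 fold of -2.23 with an SE of 0.18, or 4.70-fold lower. Gp1bb made up 96.7%, 97.6% and 98.1% of the counts of the 10 genes in the input libraries. In the IP libraries its share was 30.1%, 28.5% and 21.0%.

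Gp9, which encodes GPIX, was almost absent from tissue RNA and was present in every IP library. The gene (ENSMUSG00000030054) lies on the plus strand of chromosome 6, from 87778072 to 87779768. Input library 1 held 6 counts, or 0.279 CPM, and input libraries 2 and 3 held 0. The IP libraries held 691, 487 and 318 counts, which were 37.3, 41.5 and 29.7 CPM. All 3 IP libraries were thus far above the input libraries, and the groups did not overlap. The mean was 0.0932 ± 0.161 CPM in the input libraries and 36.2 ± 6.00 CPM in the IP libraries (SD, n = 3 each), and the fitted log2 fold was 8.42 with an SE of 0.80. The size of this fold rests on the 6 counts of 1 input library. With all libraries Gp9 was 342-fold higher in IP. Without that library the input had no count, and setting the input group to 3 counts gave at least 471-fold. That value holds for the remaining libraries and is not a lower limit on the fold with all libraries.

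Gp1ba, which encodes the von Willebrand factor binding subunit, stayed low in both groups. The gene lies on chromosome 11 from 70639122 to 70642036. Its counts were 4, 0 and 19 in input libraries 1, 2 and 3, or 0.186, 0 and 0.975 CPM. They were 25, 13 and 39 in the IP libraries, or 1.35, 1.11 and 3.64 CPM. The IP libraries were above the input libraries, but the highest input and the lowest IP library were close, and the fitted log2 fold of 2.37 had an SE of 1.62. In pair 3 both libraries were the highest of their group.

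Gp5, which encodes GPV, was found at low level in tissue and hardly at all on the beads. It lies on chromosome 16 from 30307685 to 30310779. The input libraries held 74, 55 and 39 counts, or 3.45, 2.86 and 2.0 CPM. IP libraries 1 and 2 held 0, and IP library 3 held 10 counts, or 0.934 CPM. The groups did not overlap, and the fitted log2 fold of -3.18 had an SE of 1.76. IP library 3 decides this value. With all libraries Gp5 was 9.03-fold lower in IP. Without IP library 3 it had no count in IP, and the value of at least 28.2-fold lower holds for the remaining libraries only.

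**Figure D1:**
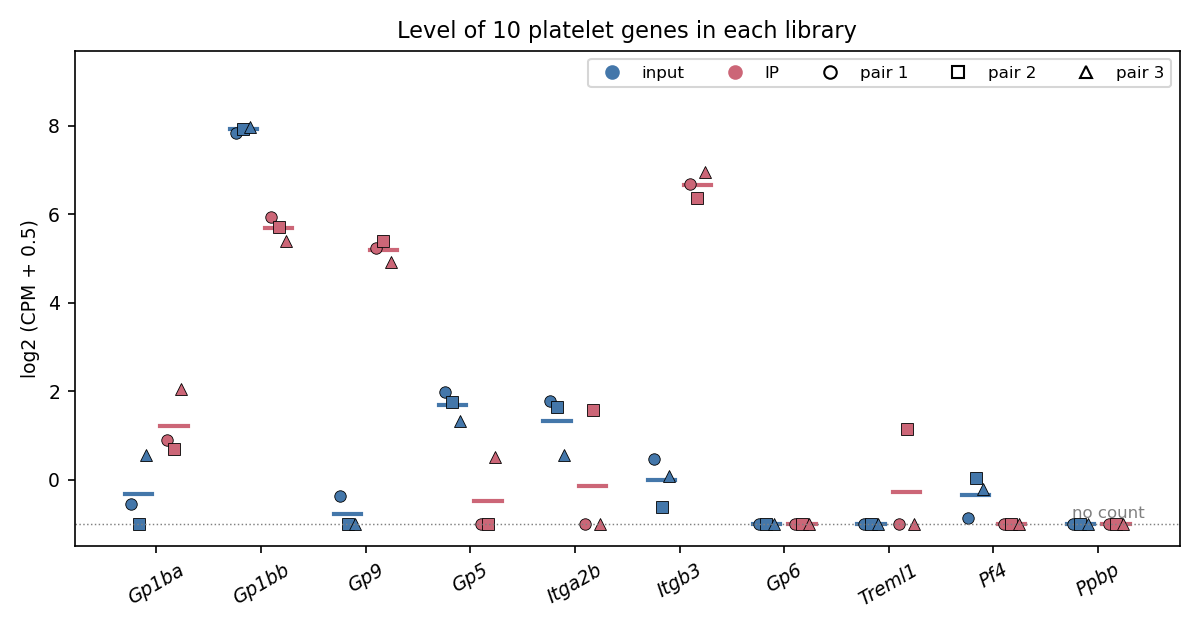
Level of the 10 genes in the 3 input libraries (blue) and the 3 IP libraries (red), on a log2 scale of CPM plus 0.5, with a symbol for each pair and a bar at the mean of the plotted values. Gp1bb is lower in IP, Gp9 and Itgb3 move from near the line of no count to well above it, and the other 7 genes stay at or below 3.64 CPM in every library.

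The counts of Gp1bb cannot be read as those of the platelet transcript alone, since the gene shares most of its exons with Sept5. Sept5 encodes a septin, a cytoskeletal GTPase that is abundant in neurons. It lies on the same strand of chromosome 16, from 18620502 to 18629954, and its longest 3′ exon runs over Gp1bb. Of the 2087 exon bases of Gp1bb, 1902 (91.1%) are also Sept5 exon, and all 652 coding bases of Gp1bb are among them, while none of the Gp1bb exon bases is coding in Sept5. A single annotated Sept5 transcript, Sept5-205, covers the coding part of Gp1bb. Other Sept5 transcripts end at 18621811 and share 593 bases with Gp1bb, none of them coding, or, as Sept5-204 does, end before Gp1bb begins. Gm49601, an annotated model that spans both genes, had no row in the count table and could not be analysed. Because both genes lie on 1 strand, a strand-specific count would not separate them in the shared bases.

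**Figure D2:**
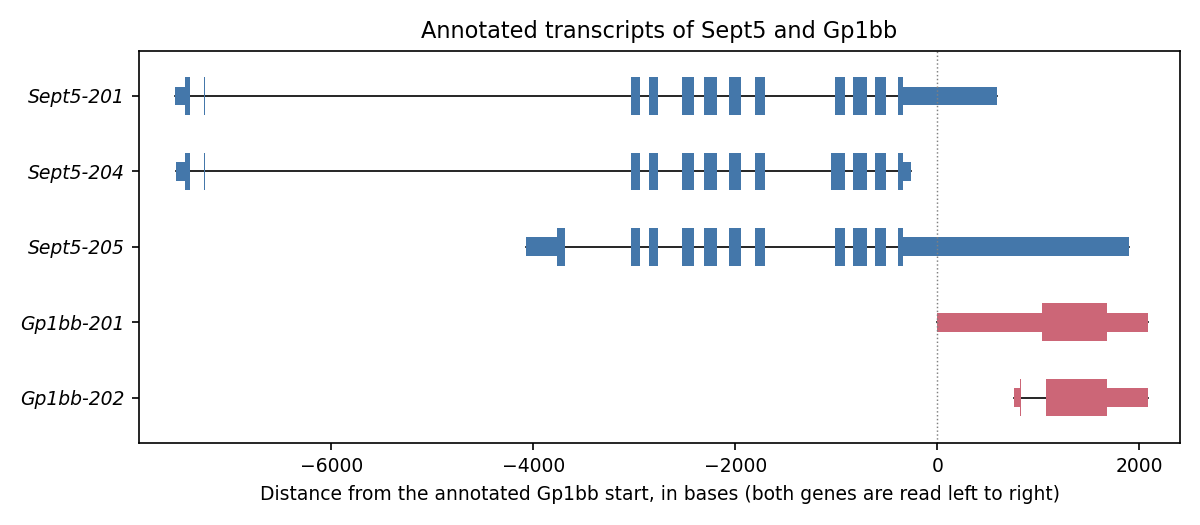
Annotated transcripts of Sept5 (blue, 3 of its 5 transcripts) and Gp1bb (red), drawn to scale in bases from the annotated start of Gp1bb, with tall boxes for coding sequence, low boxes for untranslated exon and lines for introns. The last exon of Sept5-205 runs through 1902 of the 2087 exon bases of Gp1bb, and that of Sept5-201 through 593.

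Gp1bb and Sept5 differed between beads and tissue by nearly the same factor. Sept5 had 885, 827 and 932 CPM in input libraries 1, 2 and 3 and 173, 157 and 166 CPM in the IP libraries. Its means were 881 ± 52.9 CPM for input and 165 ± 8.06 CPM for IP (SD, n = 3 each), and the log2 fold of -2.41 had an SE of 0.14 (edgeR quasi-likelihood test, Benjamini-Hochberg adjusted p = 8.8e-07). Gp1bb counts were 25.8%, 29.7% and 27.0% of Sept5 counts in input and 35.1%, 32.8% and 25.1% in IP. The ranges of the 2 groups overlapped, with means of 27.5 ± 1.97% and 31.0 ± 5.22% (SD, n = 3 each) and a difference of 0.16 on the log2 scale. Within pairs, Gp1bb differed by -1.90, -2.24 and -2.58 on the log2 (CPM + 0.5) scale and Sept5 by -2.35, -2.39 and -2.49. How many Gp1bb counts came from Sept5 transcripts was not tested, since read positions were not used here.

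Itgb3, which encodes the β3 chain, had the largest number of counts of the set in IP. The gene (ENSMUSG00000020689) lies on the plus strand of chromosome 11, from 104608000 to 104670476. The input libraries held 19, 3 and 11 counts, or 0.885, 0.156 and 0.564 CPM. The IP libraries held 1909, 969 and 1315 counts, or 103, 82.6 and 123 CPM. No IP library came near the input level. The mean was 0.535 ± 0.365 CPM for input and 103 ± 20.1 CPM for IP (SD, n = 3 each), a fitted log2 fold of 7.54 with an SE of 0.45.

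Itga2b, which encodes the αIIb partner of β3 in platelets, did not move with it. The gene lies on the minus strand of chromosome 11, from 102453297 to 102470122. The input libraries held 63, 50 and 19 counts, or 2.93, 2.60 and 0.975 CPM. IP library 2 held 29 counts, or 2.47 CPM, and the other IP libraries held 0. IP library 2 stood within the input range, so the groups overlapped, and the log2 fold of -1.40 had an SE of 1.82. With all libraries Itga2b was 2.64-fold lower in IP. Without IP library 2 it had no count in IP, and the value of at least 21.4-fold lower holds for the remaining libraries only.

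Itgav, which encodes the αv chain that β3 also pairs with, was higher in IP. The input libraries had 12.2, 9.53 and 17.0 CPM and the IP libraries 78.0, 76.6 and 96.3 CPM, with no overlap. The means were 12.9 ± 3.78 CPM for input and 83.6 ± 11.0 CPM for IP (SD, n = 3 each), and the log2 fold of 2.70 had an SE of 0.26 (edgeR adjusted p = 2.4e-05). Of 10 other integrin genes listed as partners or relatives, 9 were tested, 7 of these were higher in IP, and the median log2 fold was 3.66. The most abundant were Itgb5, which encodes another αv partner and had 66.4 ± 11.1 CPM in tissue and 2539 ± 539 CPM on the beads, and Itgam, the αM chain of a myeloid integrin, with 15.2 ± 1.27 and 1933 ± 156 CPM (SD, n = 3 each). Itgb8 and Itga4 were tested and not called, with log2 folds of -2.62 and -1.46, and Itgb6 had no count.

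The remaining 4 genes of the set were at or near 0. Gp6, the platelet collagen receptor, and Ppbp, a chemokine precursor stored in alpha granules, had no count in any of the 6 libraries. Treml1 had 20 counts, all in IP library 2, where they were 1.71 CPM, a level at least 9.79-fold higher in IP with the input group set to 3 counts. Pf4, platelet factor 4, had 1, 10 and 7 counts in input and none in IP, which was at least 4.08-fold lower in IP with the IP group set to 3 counts. These are few counts, at most 20 in a library against the limit of 3, and 1 library carries the Treml1 value.

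Of the 6 genes tested, Gp9 and Itgb3 were called higher, Gp1bb was called lower and Gp1ba, Gp5 and Itga2b were not called. The levels of 5 of them did not overlap between groups, the exception being Itga2b. Over all tested genes the share called was 47.7% and the share without overlap 61.9%, as given above. Gp9, Itgb3 and Gp1ba passed the filter on low counts only through their IP libraries, and Gp5 and Itga2b only through their input libraries. The set was also chosen on this contrast, so nothing is read from these counts.

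Levels per kb of exon allow the genes to be set beside each other. In input, Gp1bb stood at 116 ± 5.79 CPM per kb, and each of the other 5 tested genes had a mean of 1.26 CPM per kb or less. In IP the order was Gp9 at 41.1 ± 6.81, Gp1bb at 24.6 ± 4.62, Itgb3 at 17.4 ± 3.40, Gp1ba at 0.748 ± 0.515, Itga2b at 0.151 ± 0.262 and Gp5 at 0.142 ± 0.245 CPM per kb (SD, n = 3 each). Gp1bb and Itgb3 are neighbours in this order whose means lay within the sum of their SDs, as are the 3 lowest genes among themselves. Itgav stood at 7.78 ± 1.02 CPM per kb in IP.

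The RNAs of the GPIb-IX-V subunit genes differed in level per kb on the beads, and protein was not measured here. Gp9 exceeded Gp1ba by 85.3, 115 and 25.1 times per kb in IP libraries 1, 2 and 3. Gp1bb stood at 0.690, 0.524 and 0.593 times the Gp9 level per kb in the same libraries. In input library 1, where Gp9 had its 6 counts, Gp1bb was 345 times the Gp9 level per kb. The Gp1bb level is that of the deposited counts, whose division between Gp1bb and Sept5 was not tested. Its length per kb takes in all 2087 exon bases, 1902 of them shared with Sept5, so its ratio to Gp9 depends on how shared reads were counted.

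Genes beside the 10 were examined because reads of a neighbour can be assigned to a short gene. Of the 14 other genes in the table that overlap one of the 10 or start or end within 10 kb of it, 9 were tested, 6 were higher in IP, 2 were lower and 1 was not called. Rab43, which encodes a Rab GTPase, lies 9085 bases from Gp9. Its means were 19.3 ± 4.07 CPM for input and 141 ± 22.3 CPM for IP (SD, n = 3 each), a log2 fold of 2.87 with an SE of 0.22 (edgeR adjusted p = 6e-06), against 8.42 for Gp9. Trem2, a microglial receptor gene, lies 5769 bases from Treml1 and rose from 17.3 ± 5.19 to 1028 ± 224 CPM, while Treml1 had counts in 1 library. Atp13a3, 1644 bases from Gp5, was higher in IP with a log2 fold of 1.67 (edgeR adjusted p = 0.0013), the opposite sign to the Gp5 value. Fam171a2 and Gpatch8, 5615 and 5793 bases from Itga2b, had log2 folds of -2.65 and 1.77. Slc25a11, 2160 bases from Gp1ba, was not called, at 0.14, and beyond it on that side Pfn1 and Rnf167 were called higher, Rnf167 losing the call in 8 other settings (edgeR adjusted p = 0.062 to 0.19). Whether reads of these genes contribute to the 10 was not tested.

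**Figure D3:**
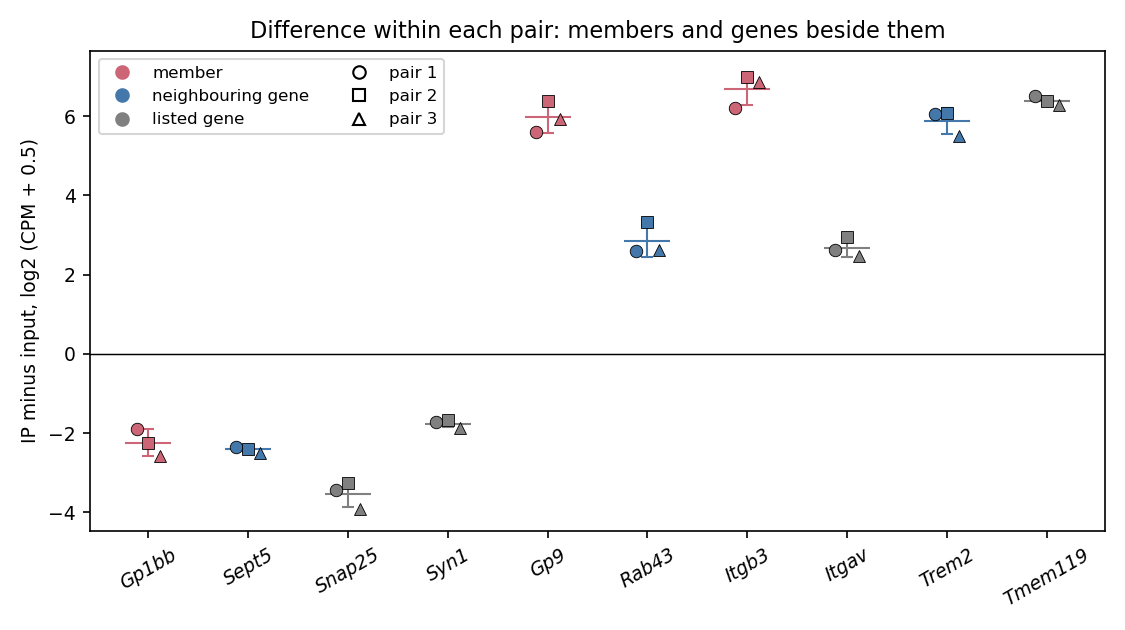
Difference of IP minus input within each pair, on the log2 (CPM + 0.5) scale, for Gp1bb, Gp9 and Itgb3 (red), for the neighbours of Gp1bb, Gp9 and Treml1 (blue) and for listed genes (grey), with the mean and the SD over 3 pairs. Gp1bb at a mean of -2.24 stands beside Sept5 at -2.41, while Gp9 at 5.97 stands above its neighbour Rab43 at 2.85 and Itgb3 at 6.69 above Itgav at 2.68. The added 0.5 is above every input level of Gp9, and the means of Gp9 and Itgb3 lie below their fitted log2 folds of 8.42 and 7.54. The order of these genes is therefore the reverse of that of the fitted folds.

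Other genes of platelets were mostly low or not called. In a list of 27 further platelet genes, 12 were tested, and 5 were higher in IP, none lower and 7 not called, with a median log2 fold of 2.23. The most abundant were Rgs10, a regulator of G protein signalling, with 42.9 ± 14.0 CPM in tissue and 765 ± 161 CPM on the beads, and Cd9, a tetraspanin gene, with 42.5 ± 3.84 and 395 ± 111 CPM (SD, n = 3 each). Srgn, which encodes the granule proteoglycan serglycin, had a log2 fold of 5.13, Vwf, which encodes von Willebrand factor, one of 3.52, and P2rx1, an ATP receptor gene, one of 3.25 (edgeR adjusted p = 9.3e-06, 0.0023 and 0.0098). Srgn, Cd9 and Rgs10 are also known from myeloid cells, Vwf from endothelial cells, and none of the 5 is restricted to platelets. Tubb1, F2rl3, Cd226, Itga2 and Rgs18 had no count in any library. Clec1b had 45 counts in IP library 1 and none elsewhere.

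Genes that act below these receptors were mostly higher in IP. Of 24 listed signalling genes, all of them tested, 19 were higher, 3 lower and 2 not called, with a median log2 fold of 5.08. Fcer1g, which encodes the Fc receptor gamma chain that carries the signal of GPVI, had 16.1 ± 3.06 CPM in tissue and 694 ± 109 CPM on the beads, while Gp6 itself had no count. Fermt3 encodes kindlin-3, which binds the tail of β integrin chains, and had 5.76 ± 2.21 CPM in tissue and 457 ± 90.4 CPM on the beads. Tln1 encodes talin, also an activator of integrins, and had 38.4 ± 5.68 CPM in tissue and 1104 ± 90.2 CPM on the beads (SD, n = 3 each). Syk, Lcp2 and Plcg2, a kinase, an adaptor and a phospholipase of the GPVI pathway, had log2 folds of 6.11, 5.62 and 5.96. Fyn, Vav3 and Ywhaz were lower, with log2 folds of -1.41, -6.76 and -1.06, and Vav3 rested on 1 count in IP. Src and Rasgrp2 were not called, at -0.38 and -0.96. Many of these genes are also known to act in microglia and other myeloid cells.

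Among 12 listed transcription factor genes of the megakaryocyte lineage, 8 were tested, all 8 were higher in IP, and the median log2 fold was 3.45. Gata1, Nfe2 and Gfi1b, which serve the late steps of megakaryocyte and erythroid development, had no count in any library, and Mecom did not pass the filter. Runx1, Tal1 and Fli1 had log2 folds of 6.37, 6.19 and 5.88, and Fli1, an ETS factor, had 3.21 ± 0.845 CPM in tissue and 190 ± 17.0 CPM on the beads (SD, n = 3 each). Lmo2 and Zfpm1, the most abundant of the list, had log2 folds of 3.54 and 1.31, and Gata2 one of 3.36 (edgeR adjusted p = 0.025), from 39 counts in input and 255 in IP. Gata2 was the 1 factor whose call was lost in other settings, with an edgeR adjusted p of 0.063 to 0.14 in 7 of them, among them the title code as a block (0.075) and each pair left out. Etv6 and Mafg were also higher.

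**Figure D4:**
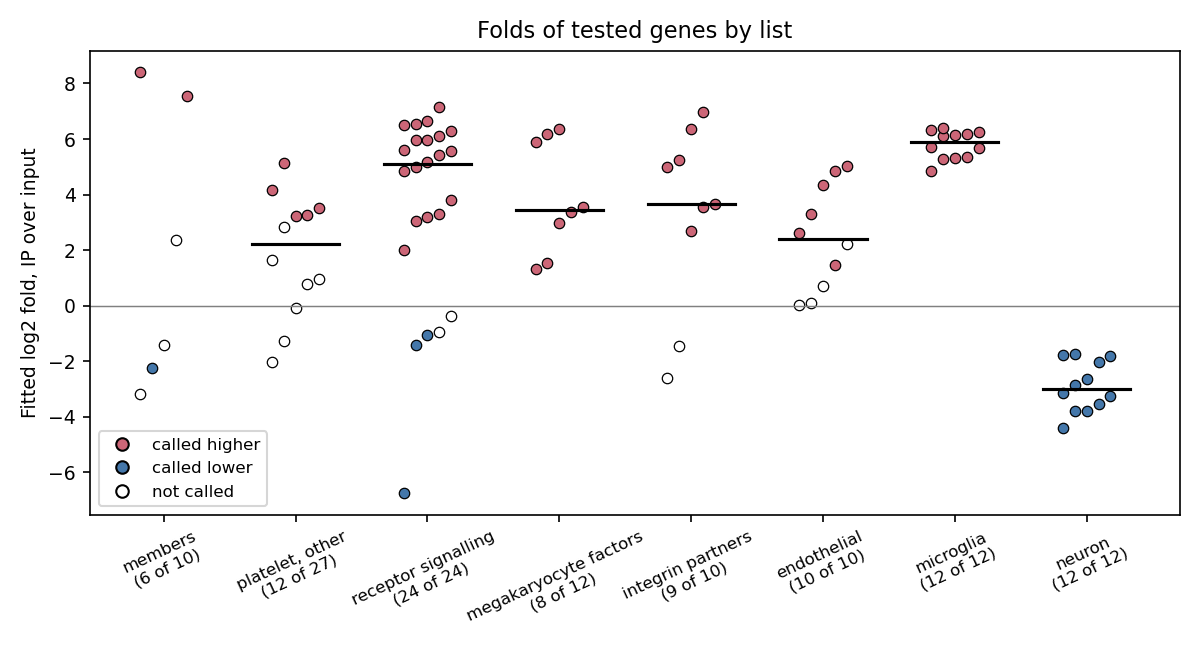
Fitted log2 fold of IP over input for the tested genes of each list, with the number tested of the number listed under each name, red for genes called higher, blue for genes called lower, white for genes not called and a bar at the median of each list other than the 10 members. The 12 microglial markers lie between 4.85 and 6.41 and the 12 neuronal markers between -4.42 and -1.73, and among the members Gp9 and Itgb3 lie above and Gp1bb within the latter range.

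Markers of other blood and vascular cells were measured in the same libraries. The 10 endothelial markers summed to 27.3 to 78.8 CPM in input libraries and 171 to 312 CPM in IP libraries, and 6 of 10 tested were higher, of which Cldn5, Slco1a4 and Cdh5 lost the call in 7, 4 and 1 of the other settings. The 8 erythroid markers summed to 10.4 to 14.2 CPM and 16.2 to 25.1 CPM, but without Ermap the other 7 summed to 9.68 to 13.2 CPM in input and 1.73 to 5.98 CPM on the beads, and 5 of them had a lower mean there. Of the 5 erythroid markers tested only Ermap was called, higher in IP, and Hbb-bs had 6.44 ± 1.94 CPM in tissue and 1.80 ± 2.33 CPM on the beads. The 8 granulocyte markers summed to 2.79 to 5.41 CPM and 226 to 294 CPM, and Csf3r, the 1 tested gene, carried nearly all of it. Without Csf3r the IP libraries held 0, 0 and 2.99 CPM of granulocyte markers, the last from S100a9, and Ly6g, Ngp, Camp, Ltf and Mmp8 had no count. The 10 border macrophage markers summed to 6.45 to 8.05 CPM and 350 to 586 CPM, with Stab1 higher and Mrc1 not called. Stab1 carried nearly all of this sum, since the other 9 markers summed to 0.833 to 2.21 CPM in input and 0.0934 to 8.64 CPM on the beads. Of these 9 markers, 4 had a higher mean on the beads, 3 had a lower mean and 2 were at 0 throughout. The higher ones were Mrc1, Ms4a7, Cbr2 and Siglec1, with group totals on the beads of 83, 58, 31 and 20 counts. Their totals in tissue were 21, 6, 5 and 0. For Ms4a7 and Siglec1 all counts on the beads came from IP library 1. Cd163, Lyve1 and F13a1 had no count in IP, and Cd209f and Clec4n none in any library. F13a1 is in both the platelet and the border macrophage list. Platelet genes without a count thus include Gp6 and Ppbp, and Pf4 was at 0 in every IP library. The part of these other cell types in the Gp9 and Itgb3 levels was not tested. In bulk libraries, fewer cells of a type and less RNA per cell cannot be told apart.

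The genes most like each member were found from the root mean square difference of centred log2 (CPM + 0.5) profiles over the 6 libraries, among 13881 named genes that were tested. Among the nearest to Gp9 were Tnfaip8l2 and Irf8, at differences of 0.10 and 0.16. Every input level of Gp9 is below the added 0.5, so its profile holds a mean pair difference of 5.97, against a fitted log2 fold of 8.42. Tnfaip8l2 and Irf8 had fitted log2 folds of 6.11 and 6.08. The profiles of Gp1ba and Gp5 also hold smaller differences than their fitted folds. Nearest to Itgb3 were Ikzf1, Lag3 and Bin2, at 0.25, 0.31 and 0.34. Nearest to Gp1bb were Asphd2, Dynll1 and Gprc5b, at 0.06, 0.08 and 0.09, and Sept5 stood at rank 49 with 0.18. Nearest to Gp1ba were Amer1, Yes1 and Pclo, nearest to Gp5 were Dnajb3, Mir132 and Hsf4, and nearest to Itga2b were Shh, Sclt1 and Prr16, at 0.16 to 0.28.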

How the data were processed

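Poly(A) RNA of 3 input and 3 IP libraries was sequenced after a stranded library preparation, per the labels' protocols. The submitters' processing notes name bcl2fastq 2.17, FastQC, Trimmomatic and the mm10 build. No aligner, counter, strand setting or annotation release is given in the sources used here. The deposited values are raw counts of reads by gene, in whole numbers, in a table of 39017 identifiers. Of these, 37693 took a symbol from GENCODE M21 (GRCm38), 28 shared one, and 17550 had no count.

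Counts were tested with edgeR 4.0.16 (quasi-likelihood F test, robust, TMM factors, filterByExpr with a minimum count of 10, no block) under R 4.3.3, over all genes that passed, and called at a Benjamini-Hochberg adjusted p below 0.05. Folds used a prior count of 0.125. Lengths per kb were the union of annotated exons. A group at 0 was set to 3 counts over the group. The test was tried on simulated counts.

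The 10 genes and all lists were chosen with earlier results of these data known. The genes named are the 10, genes that overlap them or lie next to them within 10 kb, the 2 most abundant tested genes of each list and the 3 nearest profiles per tested gene, and other listed or neighbouring genes named were picked with their values known. A gene that the rule takes is not reported here. The title code gave the pairing, since an input and its IP share a code. On 11180 genes, deviations from group means correlated at 0.06, 0.25 and 0.18 within a code and at -0.20 to 0.03 between codes. The labels do not say that codes are separate animals, so p-values measure the spread between coded specimens. Alternatives were RLE and upper-quartile factors, no filter, a minimum count of 30, DESeq2 1.42.0, limma-voom (limma 3.58.1), the code as a block, each library or pair left out, a prior count of 2 and the longest transcript as length. Python 3.11.15, pandas 2.3.3, NumPy 2.4.6 and Matplotlib 3.10.9 made the tables and plots.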

Additional observations from a re-analysis of the deposited data

How the results depend on the processing

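Over 17 settings, 3 or 4 of the 10 genes were called and 5249 to 8698 genes in all, the latter being lowest without pair 1 and highest with limma-voom. With the title code as a replicate block, 7482 genes were called, 3698 higher and 3784 lower, 3 of the 10 genes and 7 in place of 8 megakaryocyte factors. Of the 10 genes, 4 were called in 4 settings, in which Gp5 was added with limma-voom, without IP library 3 and without pair 3, and Itga2b without IP library 2. These counts describe genes chosen on the same contrast. Leaving out each library or pair gave 4 to 6 other platelet genes, 22 or 23 signalling genes, 7 or 8 megakaryocyte factors and 7 to 9 neighbouring genes. P2rx1 lost its call in 1 setting, at an adjusted p of 0.073, and Itgb8 was called lower in 8 settings, with an adjusted p of 0.0081 to 0.045. Of 101 folds of the tested members, 71 moved by no more than 1 SD over pairs, 30 moved by more, to larger or smaller folds, and all 101 kept their sign. That SD is of pair differences in log2 (CPM + 0.5), not of fitted folds, and ran from 0.13 for Gp1ba to 1.36 for Itga2b. The split into 71 and 30 is therefore no measure of how stable a fold was. The Gp9 log2 fold was 7.39 with a prior count of 2, 9.27 with limma-voom and 7.77 without pair 2, and that of Gp1ba ran from 1.65 to 4.30. Gp1ba was not tested at a minimum count of 30. Upper-quartile factors moved the median log2 fold of all genes from -0.10 to -0.23 and the share of calls that were higher from 49.9% to 44.9%. Depth limits Gp1ba, Gp5, Itga2b, Treml1 and Pf4, whose values rest on a few counts, and Gp9 in input. The cause of these shifts was not tested.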
